A study of Mus musculus with 6 samples.

Results

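The IL-2 receptor, the kinases and transcription factors it signals through, and the inhibitors that this signal switches on were followed in mouse T cells by bulk RNA sequencing. The 10 genes were chosen by symbol: the receptor chains Il2ra, Il2rb and Il2rg, the kinases Jak1 and Jak3, the transcription factors Stat5a and Stat5b, and the feedback inhibitors Cish, Socs1 and Socs2. All 10 were found among the 55401 genes of the count file, and all 10 were among the 14082 genes that had enough counts to be tested. The comparison was between 3 cultures with NFL-activated macrophage supernatant (the NFL group) and 3 cultures with supernatant of untreated macrophages (the control group), and it addresses how soluble factors from macrophages exposed to NFL (neurofilament light chain, which is part of the axonal cytoskeleton) act on T cells.

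According to the design text, the T cells of both groups came from mouse spleen, by density gradient and then by magnetic beads against CD8a. Spleen cells that bound CD11b beads were turned into macrophages over 7 days with 50 ng/mL M-CSF, also in both groups. For the NFL group they were given 5 µg/mL NFL, which that text describes as prepared from freeze-thawed sciatic nerve, for 24 h before the supernatant was taken. The co-culture methods of the study give a lower NFL concentration, and which of them applied to these libraries was not settled here. In both groups the supernatant was passed through a 0.22 µm filter and made up 50% of an RPMI-1640 medium with 2% serum. The sources used here name no strain, age, added IL-2 or other stimulus for these T-cell cultures, and do not say how long the cultures ran. They also do not say whether the 3 samples of a group came from separate mice or separate cultures, and a sample is called a culture here only for short. The p-values therefore measure only the spread between these samples, which may be technical. This spread was small, with a common coefficient of variation of 3.48% beyond the sampling noise of reads, so that small changes could give small p-values.

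IL-2 is a growth factor of T cells. The α chain (Il2ra, also known as CD25) raises the affinity of the receptor for IL-2 and carries little signal itself, whereas the β chain (Il2rb) and the common γ chain (Il2rg) carry the signal into the cell. JAK1 sits on the β chain and JAK3 on the γ chain. Once active, they phosphorylate STAT5A and STAT5B, which enter the nucleus and switch on genes of growth and survival, as well as Il2ra itself. The same signal also switches on Cish, Socs1 and Socs2, whose products dampen cytokine signaling, and thereby close a feedback loop.

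The promoter sequences of the receptor chains that rose are shown because these stretches lie directly before the start sites of the transcripts. Each stretch is the 250 bases before the start site, in RefSeq's GRCm38.p6, read 5′ to 3′ on the strand of the gene, for Il2ra at chr2:11642542-11642791 on the plus strand and for Il2rg at chrX:101268256-101268505 on the minus strand. Capitals mark 2 overlapping matches to the κB consensus, the element that NF-κB binds.
Il2ra promoter: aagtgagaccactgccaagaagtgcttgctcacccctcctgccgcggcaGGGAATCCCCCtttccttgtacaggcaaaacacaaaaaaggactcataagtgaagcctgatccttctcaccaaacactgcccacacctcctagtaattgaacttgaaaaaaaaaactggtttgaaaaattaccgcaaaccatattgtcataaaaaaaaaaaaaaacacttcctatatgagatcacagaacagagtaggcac
Il2rg promoter: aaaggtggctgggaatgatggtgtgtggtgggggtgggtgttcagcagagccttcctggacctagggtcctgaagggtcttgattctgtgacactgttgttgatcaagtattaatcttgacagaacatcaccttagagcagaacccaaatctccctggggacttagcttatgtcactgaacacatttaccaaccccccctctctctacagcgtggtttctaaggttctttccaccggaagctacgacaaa
The first base of the Il2ra matches lay 201 bases before the start site, and the Il2rg window held no match. RefSeq windows were found for 8 of the 10 genes, with 10 windows between them. Il2rb and Socs2 had no entry. On both strands, the κB consensus was found in 2 of these 10 windows, those of Il2ra and of 1 start site of Stat5a, against 7.25% of 32851 mouse promoter windows of the same length. The STAT-type motif TTCNNNGAA, which reads the same on both strands, was in 0 of the 10 windows, against 7.02% of all windows. A match is a description of these letters only, and distant enhancers, which are known to matter for Il2ra, were not searched.

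Total counts ran from 15843045 to 24639756 per library, so that 3 counts correspond to between 0.122 and 0.189 CPM (counts scaled to the library's total), and the TMM scaling factors were between 0.994 and 1.007. Over all tested genes, 986 (7.00%) were past an adjusted p of 0.05 in edgeR's quasi-likelihood test, 489 (3.47%) of them higher in the NFL group and 497 (3.53%) lower. When libraries were scaled by their size alone, the split was 372 higher and 600 lower. The label of the cells was checked against T-cell markers. Thy1 averaged 1672 CPM in the control group, Cd3e 61.0 CPM and Cd4 25.1 CPM, whereas Cd8a had 3.20 to 4.46 CPM there and Cd8b1 averaged 1.43 CPM. Cd2 and Cd5 had 0 counts in all 6 libraries, and Ptprc, which encodes CD45, had 3 to 9 counts per library. Thus several defining markers of a CD8+ T cell from spleen were low or absent, and the cells are called T cells here only as the labels call them.

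Of the IL-2 receptor, JAK-STAT5 and SOCS genes, 3 of 10 were past the threshold, beside 7.00% of all tested genes. Il2ra and Il2rg rose with NFL-activated macrophage supernatant, and Il2rb fell. The changes were small: Il2ra was 13.0% higher, Il2rg 18.7% higher and Il2rb lower by a log2 fold change of -0.12. None of the kinases, STAT5 genes or feedback inhibitors passed the test. The groups did not overlap for 7 of the 10 genes, 4 of them higher and 3 lower with NFL, whereas 22.7% of all tested genes had groups that did not overlap. The median log2 fold change of the 10 genes was 0.0083, and the median size of the change, whatever its sign, was 0.086, against 0.090 over all tested genes. In bulk samples, fewer cells of a type and less RNA per cell cannot be told apart.

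**Figure D1:**
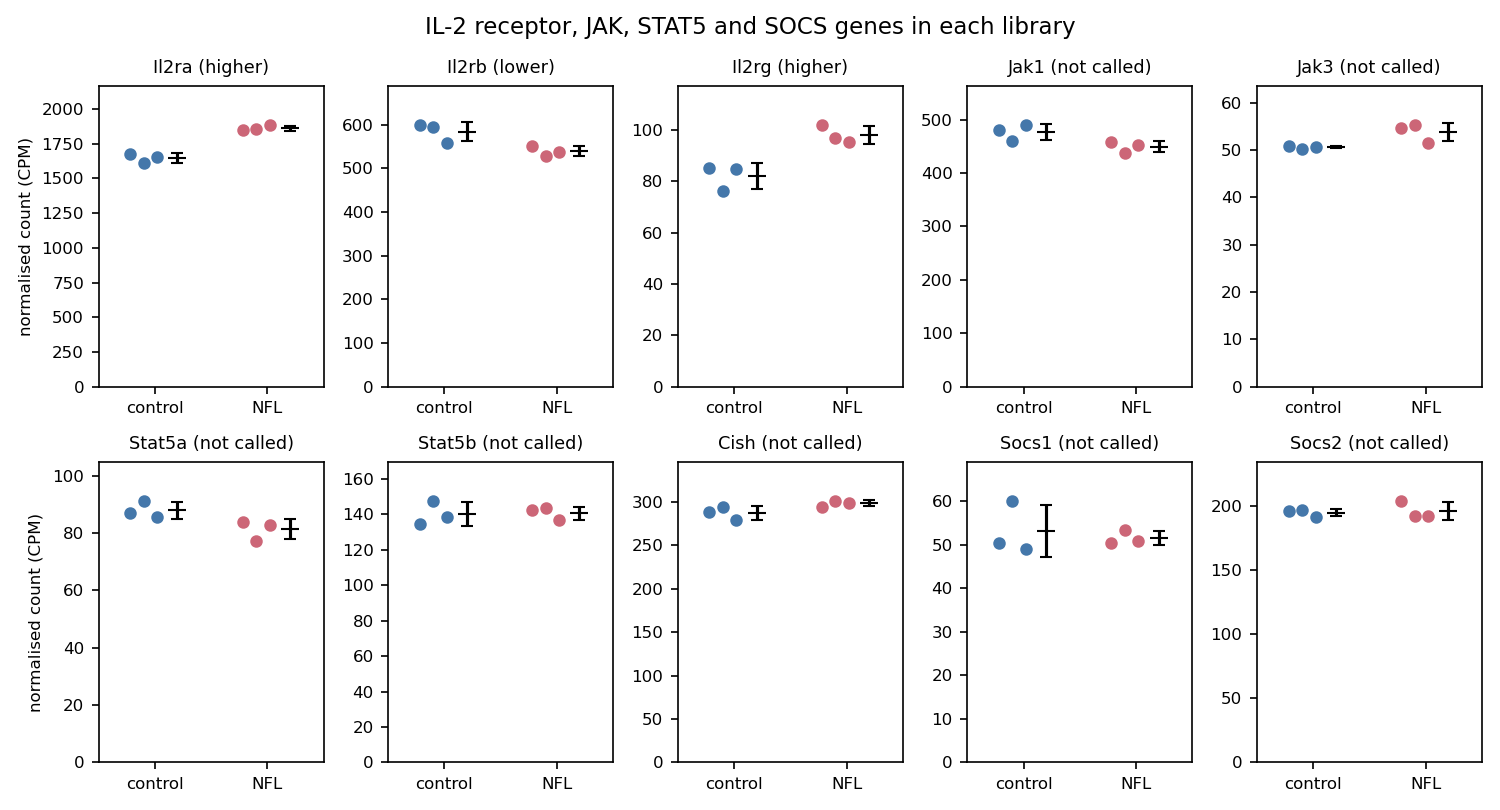
Normalised counts (CPM, TMM scaled, y axis from 0) of the 10 genes in each of the 3 control (blue) and 3 NFL (red) libraries, with the mean and SD of each group as a black bar. The NFL libraries sit at 1847 to 1883 CPM for Il2ra, above all control libraries, and at 529 to 552 CPM for Il2rb, below all control libraries. For Stat5b, Socs1 and Socs2 the groups overlap.

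Il2ra (ENSMUSG00000026770.5, chr2:11642807-11693193, plus strand, GRCm38) encodes the α chain. It had 1677, 1608 and 1656 CPM in the control cultures and 1847, 1854 and 1883 CPM in the NFL cultures. Every NFL culture was therefore above every control culture, and the gap between the groups was wider than the spread within either. The means were 1647 ± 35.2 CPM (SD, n = 3) and 1861 ± 18.8 CPM (SD, n = 3), a log2 fold change of 0.18 (SE 0.025, 95% interval 0.13 to 0.23, adjusted p = 1.1e-06). Each library held 25629 to 41271 counts of Il2ra, which ranked 70 among all tested genes by p.

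Il2rg (ENSMUSG00000031304.18, chrX:101264378-101268255, minus strand) encodes the common γ chain, which the receptors for IL-4, IL-7, IL-9, IL-15 and IL-21 also use. The control cultures had 85.3, 76.4 and 85.0 CPM, and the NFL cultures had 102, 96.9 and 95.4 CPM. All NFL cultures were higher, and the control culture at 76.4 CPM stood below the other two. The means were 82.2 ± 5.03 CPM (SD, n = 3) and 98.1 ± 3.43 CPM (SD, n = 3). The log2 fold change was 0.25 (SE 0.046, 95% interval 0.16 to 0.34, adjusted p = 0.00017), from 1218 to 2099 counts per library. Of the 50-base stretches of Il2rg transcripts, 27.5% also occur in other genes on the same strand. Gm20489, an overlapping gene that had at most 1 count in any library, shares the most. How reads in such stretches were counted is not given in the sources used here, so the level of Il2rg is uncertain.

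Il2rb (ENSMUSG00000068227.9, chr15:78479256-78495271, minus strand) encodes the β chain, which the IL-15 receptor shares. It moved the other way. The control cultures had 599, 596 and 559 CPM, and the NFL cultures 552, 529 and 537 CPM. The groups did not overlap, although the lowest control culture and the highest NFL culture were close to each other. The means were 584 ± 22.4 CPM (SD, n = 3) and 539 ± 11.9 CPM (SD, n = 3), a log2 fold change of -0.12 (SE 0.029, 95% interval -0.17 to -0.056, adjusted p = 0.0081). This call was less stable than those of Il2ra and Il2rg: the adjusted p was 0.0868 without control replicate 1, 0.0970 without NFL replicate 2 and 0.0747 without NFL replicate 3, while the log2 fold change stayed between -0.15 and -0.09.

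**Figure D2:**
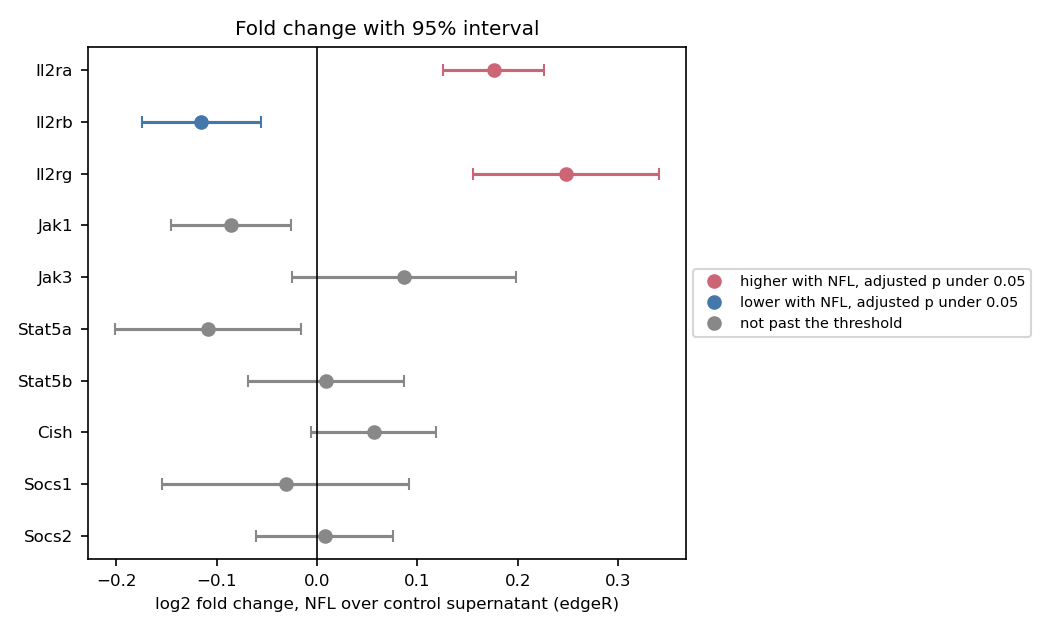
Log2 fold change (NFL over control supernatant, x axis) of each of the 10 genes from edgeR, with its 95% interval as a bar. Il2ra and Il2rg (red) lie above 0 and Il2rb (blue) below 0, and the 7 genes in gray were not past the adjusted p of 0.05.

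Both kinases gave groups that did not overlap, beside 22.7% of all tested genes, but in opposite directions and without passing the test. Jak1 (ENSMUSG00000028530.14, chr4:101152367-101265282, minus strand) had 480, 459 and 489 CPM in the control cultures and 458, 438 and 451 CPM in the NFL cultures. The highest NFL culture and the lowest control culture differed by little. The log2 fold change was -0.086 (SE 0.030, 95% interval -0.15 to -0.026, adjusted p = 0.0702), between means of 476 ± 15.5 CPM and 449 ± 10.1 CPM (SD, n = 3 each). Jak1 crossed the threshold as lower with library size alone (adjusted p = 0.0262), with limma-voom (0.0389) and without control replicate 2 (0.0103), and its adjusted p ranged up to 0.370 over the alternatives. Jak3 (ENSMUSG00000031805.17, chr8:71676296-71690575, plus strand) had 50.9, 50.3 and 50.8 CPM in the control cultures and 54.6, 55.3 and 51.6 CPM in the NFL cultures. The control cultures had an SD of 0.305 CPM, whereas the NFL cultures had an SD of 1.96 CPM. The log2 fold change was 0.086 (SE 0.055, 95% interval -0.025 to 0.20, adjusted p = 0.4336). Of the 50-base stretches of Jak3 transcripts, 7.21% also occur in other genes. Insl3, an overlapping gene on the same strand with at most 26 counts in any library, shares the most.

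The STAT5 genes lie next to each other on chromosome 11 and encode closely related proteins. Stat5a (ENSMUSG00000004043.14, chr11:100859351-100885169, plus strand) had 86.8, 91.2 and 85.6 CPM in the control cultures and 83.9, 77.3 and 82.8 CPM in the NFL cultures. All NFL cultures were lower, and NFL replicate 2 was the lowest. The log2 fold change was -0.11 (SE 0.046, 95% interval -0.20 to -0.016, adjusted p = 0.1652), and -0.070 without NFL replicate 2. Stat5b (ENSMUSG00000020919.11, chr11:100780731-100850724, minus strand) had 134, 147 and 139 CPM in the control cultures and 142, 143 and 137 CPM in the NFL cultures. These groups overlapped, with a log2 fold change of 0.0087 (SE 0.039, 95% interval -0.069 to 0.086, adjusted p = 0.9408). Of the 50-base stretches of Stat5a, 8.21% also occur in Stat5b. Exons of Stat5a also overlap those of Stat3 on the opposite strand. Stat3 itself had 104 ± 6.81 CPM and 104 ± 5.09 CPM (SD, n = 3 each).

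Among the feedback inhibitors, transcripts of Cish, Socs1 and Socs2 were all present and none passed the test. Cish (ENSMUSG00000032578.7, chr9:107296026-107302784, plus strand), an early STAT5 target whose product binds activated cytokine receptors, had 288, 294 and 279 CPM in the control cultures and 295, 301 and 299 CPM in the NFL cultures. The lowest NFL culture exceeded the highest control culture by less than 1 CPM. The log2 fold change was 0.057 (SE 0.031, 95% interval -0.0058 to 0.12, adjusted p = 0.3243), and 0.035 without control replicate 3. Of the 50-base stretches of Cish, 9.35% also occur in other genes on the opposite strand. Of the genes that overlap it, Gm17041 had 0 counts and Gm17040 up to 152 counts, against at least 4689 counts of Cish. Socs1 (ENSMUSG00000038037.5, chr16:10782240-10785536, minus strand), whose product inhibits JAK kinases directly, had 50.4, 60.1 and 49.0 CPM in the control cultures and 50.4, 53.5 and 51.0 CPM in the NFL cultures. Control replicate 2 stood above the rest. The log2 fold change was -0.031 (95% interval -0.15 to 0.092, adjusted p = 0.8505) and turned to 0.058 without that culture. Socs2 (ENSMUSG00000020027.18, chr10:95385362-95417180, minus strand), best known as a brake on growth hormone signaling, had 196, 197 and 192 CPM in the control cultures and 204, 192 and 192 CPM in the NFL cultures. Its groups overlapped, with a log2 fold change of 0.0078 (95% interval -0.060 to 0.076, adjusted p = 0.9395). For Cish, Socs1 and Socs2, the upper ends of the 95% intervals corresponded to rises of 8.59%, 6.57% and 5.41%, respectively. These intervals reflect only the spread between these samples.

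To compare genes with each other, levels were divided by the length of the merged exons of each gene. On this per-kilobase scale Il2ra had the highest level of the 10 genes, 288 ± 6.17 CPM per kilobase in the control group and 326 ± 3.28 in the NFL group (SD, n = 3 each). Il2rb followed with 136 ± 5.21 and 126 ± 2.79 CPM per kilobase, and Il2rg was well below both with 34.5 ± 2.11 and 41.1 ± 1.44. Jak1 (65.9 and 62.2 CPM per kilobase) and Cish (44.7 and 46.5) stood between Il2rb and Il2rg. Stat5b came next at 25.3 and 25.4 CPM per kilobase. Socs2 (20.5 and 20.6) and Socs1 (18.3 and 17.8) followed, and these neighbors overlapped in their values over the 6 libraries. Stat5a (12.3 and 11.4) and Jak3 (9.47 and 10.1) had the lowest levels. All other neighbors in this order had separate ranges. The level of Il2rg is uncertain because of the stretches it shares with other genes, most of all Gm20489, and so are its place and its ratios given below. The same limit, with smaller shares, applies to genes such as Jak3, Stat5a and Stat5b and to their ratios. The order depends on which isoforms are counted in the length: with the longest transcript, 6 of the 10 genes kept their place, and Socs2 moved above Stat5b and Stat5a above Socs1.

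**Figure D3:**
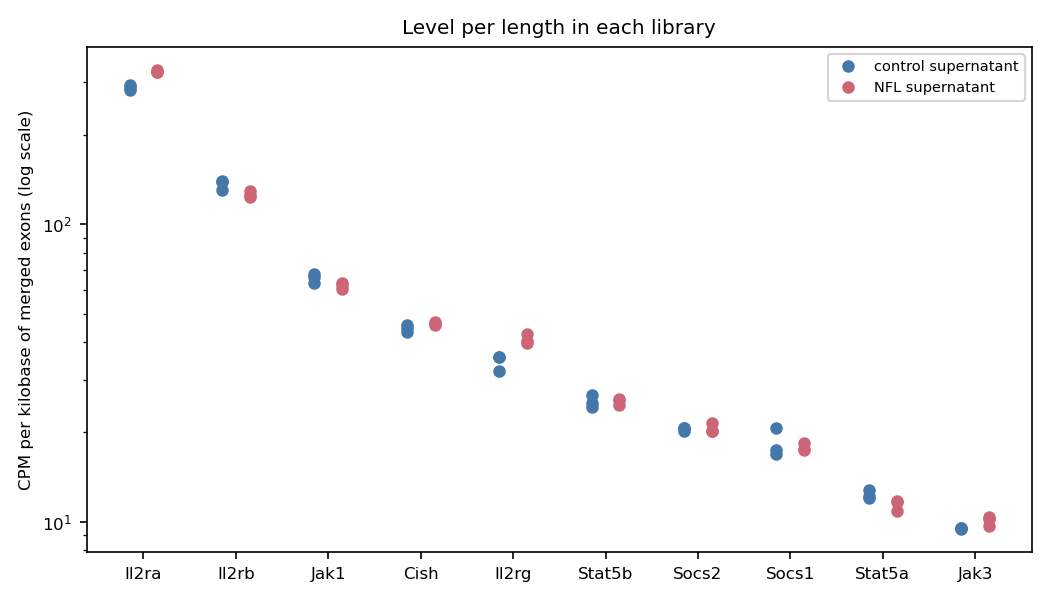
Level per length (CPM per kilobase of merged exons, log axis) of the 10 genes in the 3 control (blue) and 3 NFL (red) libraries, ordered by level. Il2ra lies between 282 and 330 CPM per kilobase and Jak3 between 9.40 and 10.3.

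Because Il2ra and Il2rg rose while Il2rb fell, the balance between receptor chains was compared within each library, where the scaling of libraries cancels. Since Il2ra and Il2rg were each higher and Il2rb lower in every NFL culture, their ratios to Il2rb had to separate the groups. These ratios describe the size of the shift and add no support to the results of the single genes. For 8 pairs of genes the ratio was tested with a two-sided exact permutation test, whose smallest p with 3 against 3 is 0.1, so that no pair could pass 0.05. The ratio of Il2ra to Il2rb per kilobase was 2.10, 2.03 and 2.23 in the control cultures and 2.51, 2.63 and 2.63 in the NFL cultures. Every NFL culture was higher, by 22.4% on average (permutation p = 0.1, adjusted p = 0.2 over the 8 pairs). The ratio of Il2rb to Il2rg was 3.91, 4.34 and 3.66 in the control cultures and 3.02, 3.04 and 3.13 in the NFL cultures. Every NFL culture was lower, by a log2 difference of -0.37 (permutation p = 0.1, adjusted p = 0.2). The ratio of Il2ra to Il2rg, by contrast, was 8.39 ± 0.356 and 7.94 ± 0.341 (SD, n = 3 each), and its groups overlapped (permutation p = 0.3, adjusted p = 0.4).

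Among the signaling genes, Jak1 per Jak3 was 6.96 ± 0.193 in the control group and 6.19 ± 0.305 in the NFL group, and Stat5a per Stat5b was 0.487 ± 0.0129 and 0.449 ± 0.0273 (SD, n = 3 each). Both ratios were lower in every NFL culture than in every control culture (permutation p = 0.1 and adjusted p = 0.2 for each). For Jak1 per Jak3 this was fixed beforehand, because Jak1 was lower and Jak3 higher in every NFL culture. The ratios among the feedback inhibitors overlapped between the groups. Cish per Socs2 was 2.18 ± 0.0288 and 2.26 ± 0.103 (permutation p = 0.4), Cish per Socs1 2.46 ± 0.211 and 2.62 ± 0.0613 (permutation p = 0.3), and Socs1 per Socs2 0.893 ± 0.0920 and 0.864 ± 0.0521 (permutation p = 0.7). With 1 library left out, the direction held for all pairs but Socs1 per Socs2, which turned to a log2 difference of 0.040 without control replicate 2 and 0.0023 without NFL replicate 1, from -0.044. The log2 difference of Stat5a per Stat5b went from -0.12 to -0.068 without NFL replicate 2. That of Il2ra per Il2rg went from -0.079 to -0.044 without control replicate 2 and -0.045 without NFL replicate 1. For Cish per Socs1 it went from 0.092 to 0.019 without control replicate 2, and for Cish per Socs2 from 0.048 to between 0.027 and 0.087 without 1 NFL culture.

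**Figure D4:**
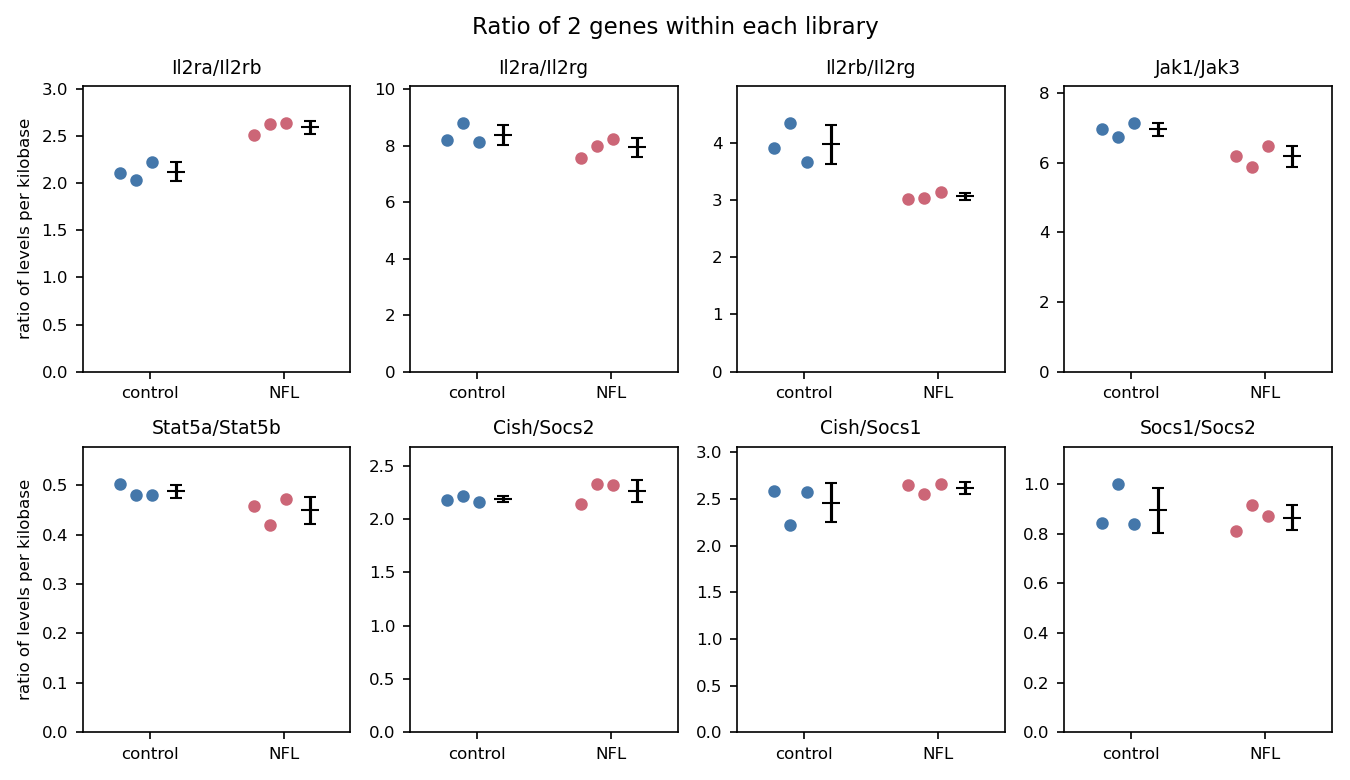
Ratio of the per-kilobase levels of 2 genes within each library (y axis from 0) for the 8 pairs, in 3 control (blue) and 3 NFL (red) libraries, with the mean and SD of each group as a black bar. Il2ra per Il2rb is higher in all NFL libraries (2.51 to 2.63, against 2.03 to 2.23), and Il2rb per Il2rg is lower (3.02 to 3.13, against 3.66 to 4.34).

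The rest of the pathway was followed in 6 lists with 67 genes, of which 56 could be tested. Among these, 3 rose and 6 fell with NFL-activated macrophage supernatant, beside 3.47% of all tested genes higher and 3.53% lower. The median log2 fold change was -0.036, against -0.001 over all tested genes. The cytokines that use the γ chain were at or near 0. Il2 itself had 0 counts in all 6 libraries, as did Il7, Il9, Il15 and Il21, and Il4 had at most 6 counts. Il2 transcripts were thus not detectable at a depth where 3 counts correspond to at most 0.189 CPM, in cultures where Il2ra had at least 1608 CPM. Whether the medium or the supernatant held IL-2 protein was not measured here.

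Of the partner receptors of the γ chain, 3 of 5 could be tested and none passed, beside 7.00% of all tested genes. Il4ra had 73.1 ± 5.27 and 71.5 ± 1.44 CPM, and Il15ra, whose product presents IL-15 to the β and γ chains, had 25.9 ± 0.00738 and 25.3 ± 1.45 CPM (SD, n = 3 each). Il21r was lower in every NFL culture, at 4.13 ± 0.506 and 2.93 ± 0.371 CPM, but its log2 fold change of -0.50 had an SE of 0.20 (adjusted p = 0.1366). Il7r, the receptor chain of resting and memory T cells, had at most 2 counts. The other JAK and STAT genes gave 0 calls among 6 tested, beside the same share. Jak2 had 153 ± 3.14 and 150 ± 5.63 CPM, and Tyk2 had 48.3 ± 1.23 and 49.1 ± 0.599 CPM (SD, n = 3 each). Stat4 had 1 to 3 counts per library and was not tested.

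Among 14 tested genes of other SOCS and negative regulators, 2 fell, beside 3.53% of all tested genes. Ptpn1, a phosphatase that removes phosphate from JAK2 and TYK2, went from 350 ± 9.50 to 324 ± 7.86 CPM (log2 fold change -0.11, adjusted p = 0.0200). Pias3, an inhibitor of STAT3, went from 28.1 ± 0.235 to 23.7 ± 1.52 CPM (log2 fold change -0.25, adjusted p = 0.0355). Ptpn1 passed in 11 of 14 alternatives, and not without control replicate 1 (adjusted p = 0.168), NFL replicate 1 (0.142) or NFL replicate 2 (0.0809). Pias3 passed in 6 of 14, and without any 1 culture other than NFL replicate 2 its adjusted p was between 0.0585 and 0.233. Socs3 had 19.1 ± 0.406 and 18.6 ± 1.72 CPM (adjusted p = 0.86). Of 11 adaptors and kinases downstream of the receptor, all tested, Pik3cd fell, and 1 of 11 is near the share of all tested genes that passed (7.00%). It encodes the catalytic δ subunit of PI3 kinase and had 253, 269 and 261 CPM in the control cultures and 221, 222 and 222 CPM in the NFL cultures (log2 fold change -0.23, SE 0.032, adjusted p = 5.7e-07).

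Of the genes known as STAT5 targets in lymphocytes, 22 of 23 could be tested, of which 3 rose, 3 fell and 16 did not pass, beside 7.00% of all tested genes past the threshold. Ifng, the effector cytokine interferon γ, showed the widest change among all the genes of these lists. It had 10.8, 8.66 and 12.5 CPM in the control cultures and 19.9, 18.7 and 18.6 CPM in the NFL cultures (log2 fold change 0.82, SE 0.11, adjusted p = 1.2e-07). All NFL cultures were higher, from 138 to 328 counts per library. Il12rb2, a chain of the IL-12 receptor, rose from 47.3 ± 4.38 to 62.3 ± 3.01 CPM (log2 fold change 0.41, adjusted p = 1.5e-06). Bcl2l1, which encodes the survival protein BCL-XL, rose from 77.7 ± 3.74 to 86.9 ± 2.51 CPM (log2 fold change 0.17, adjusted p = 0.0189). It passed in 11 of 14 alternatives, and not without control replicate 3 (adjusted p = 0.149), NFL replicate 1 (0.0775) or NFL replicate 3 (0.113).

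The STAT5 targets that fell encode transcriptional regulators. Id2, which restrains E proteins and favors effector T cells, went from 427 ± 6.59 to 367 ± 10.5 CPM (log2 fold change -0.22, adjusted p = 3.9e-07). Nfil3 went from 134 ± 6.53 to 119 ± 0.715 CPM (log2 fold change -0.17, adjusted p = 0.0035). Gata3 went from 56.2 ± 3.91 to 48.6 ± 1.69 CPM (log2 fold change -0.22, adjusted p = 0.0126). Nfil3 lost the call without control replicate 1 (adjusted p = 0.0966), and so did Gata3 (0.195), which also lost it without NFL replicate 3 (0.118). Among targets that did not pass, Bcl2 had 715 ± 18.6 and 674 ± 7.32 CPM (adjusted p = 0.0506), Ccnd2, a cyclin of early cell cycle, 616 ± 6.32 and 587 ± 10.6 CPM (adjusted p = 0.1482), and Pim1, a survival kinase, 57.6 ± 3.01 and 62.4 ± 0.700 CPM (adjusted p = 0.191). Bcl2 passed as lower in 7 of 14 alternatives, among them limma-voom (adjusted p = 0.0251), DESeq2 (0.0362) and the fit without control replicate 1 (0.0286). The groups did not overlap for Bcl2 and Ccnd2, which were lower with NFL, and for Pim1, which was higher, beside 22.7% of all tested genes.

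**Figure D5:**
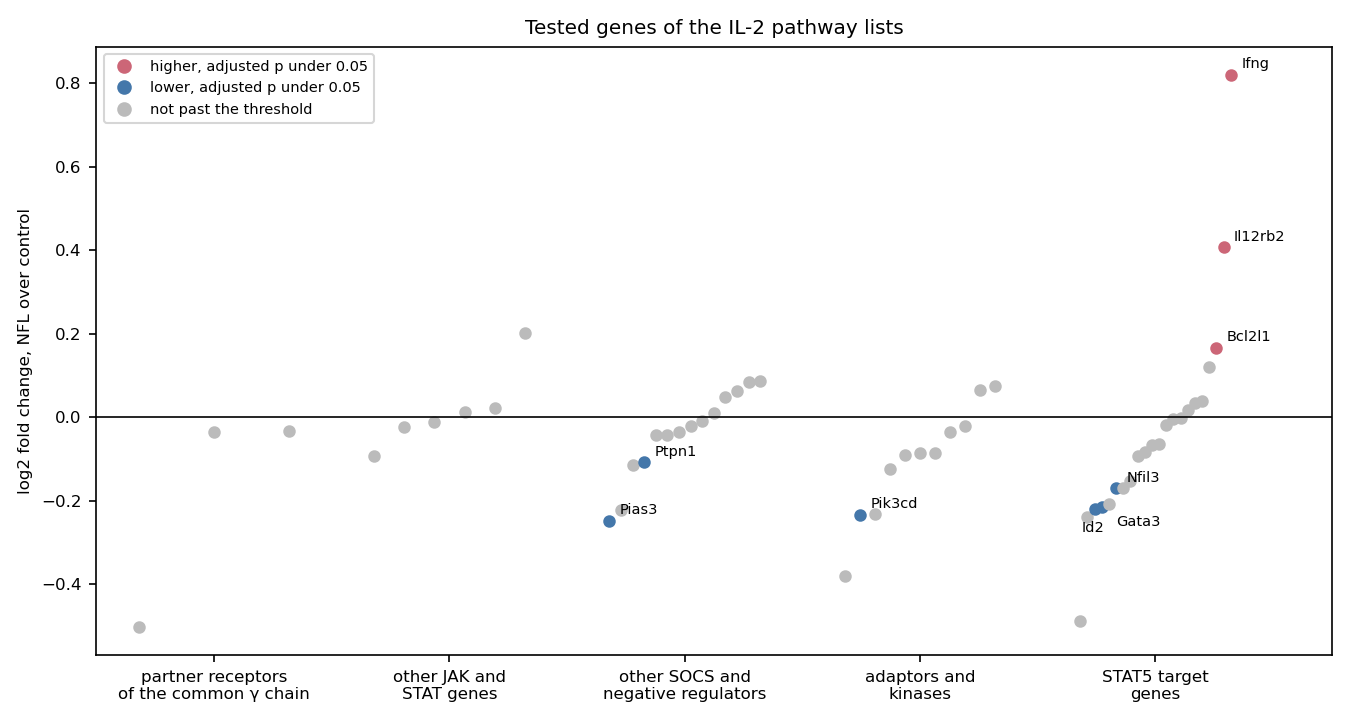
Log2 fold change (NFL over control supernatant, y axis) of the 56 tested genes of the pathway lists, by list, each list ordered by its values. Genes past an adjusted p of 0.05 are named, 3 higher in red, led by Ifng at 0.82, and 6 lower in blue, between -0.25 and -0.11. The list of cytokines had no tested gene.

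To describe what else varied like Il2ra, the gene of the 10 with the smallest p, each of 11322 tested genes whose mean log2 CPM was 1 or more was correlated with it over the 6 libraries. Hook2 had the highest Pearson r (0.999), followed by Eif3e (0.996), a subunit of a translation initiation factor, and Rsl1d1 (0.995), a nucleolar protein. Hook2, a linker protein of microtubules, had 17.8 ± 0.654 CPM in the control group and 21.8 ± 0.238 CPM in the NFL group (SD, n = 3 each). In all, 168 genes had an r over 0.95, and a difference between the groups that Il2ra shares raises r by itself. These values are a description of 6 libraries that share scaling and depth.

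Markers of other cell types were summed in each library, since T-cell cultures from spleen could hold other cells. The macrophage list had 6 of 10 genes at 0 in all libraries, among them C1qa, C1qb, Cd14, Itgam and Mrc1, and its sum was 24.5 to 27.5 CPM in the control group and 19.2 to 23.4 CPM in the NFL group. Nearly all of that was Cd68, without which the sums were 0.126 to 0.325 CPM and 0.0621 to 0.233 CPM, which overlap. The list of natural killer cells had Ncr1 and Klra4 at 0 and summed to 29.8 to 33.0 CPM and 22.3 to 22.8 CPM, of which Klrb1c made up nearly all. Without Klrb1c the sums were 0.123 to 0.203 CPM and 0.116 to 0.227 CPM, which overlap as well. The B-cell list, led by Pax5, had Ms4a1 and Ighm at 0 and summed to 16.6 to 17.8 CPM and 17.9 to 19.7 CPM. Pax5 itself averaged 9.86 and 9.37 CPM, and without it the sums were 5.96 to 8.84 CPM and 9.12 to 9.82 CPM. Of 4 tested B-cell genes, 0 passed, beside 7.00% of all tested genes, and the groups overlapped for each. The erythroid list, led by Alas2, had Hba-a1 and Hbb-bs at 0 and summed to at most 1.99 CPM. The T-cell list summed to 1762 to 1861 CPM in the control group and 1711 to 1803 CPM in the NFL group. Thy1 made up most of it, and without Thy1 the sums were 146 to 152 CPM and 127 to 137 CPM, which do not overlap. Of the 8 tested T-cell markers, 2 had a positive and 6 a negative log2 fold change, and 1 passed, beside 7.00% of all tested genes. This was Cd3e, which fell from 61.0 ± 4.24 to 50.2 ± 0.960 CPM (log2 fold change -0.28, adjusted p = 0.00057). Cd68 and Klrb1c, which made up nearly all of the macrophage and natural killer cell sums, were thus lower with NFL. So was the T-cell sum without Thy1, of which Cd3e is a part. The B-cell sum was slightly higher, though none of its tested genes passed. These values moved with the groups in which Il2ra and Il2rg rose and Il2rb fell. Their part in these results was not tested.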

How the data were processed

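RNA of 3 control and 3 NFL cultures, grouped by their labels, was enriched for poly(A) tails and sequenced. The authors deposited raw read counts per gene, whole numbers with no normalization, for 55401 versioned Ensembl identifiers. The submitters' processing notes name GRCm39, R 4.2.1 and limma 3.54.2, while aligner, counting program and strandedness are not given in the sources used here. Of the identifiers, 54349 were identical to GENCODE M21 (GRCm38), which gave lengths and coordinates. Symbols were taken from a list of gene names, matched on identifiers without their version, and 55141 identifiers had one. A different annotation at the authors' step could change which reads a gene received. No row lacked a gene identifier, and 0 columns were left without a sample.

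Genes were filtered with filterByExpr (minimum count 10, minimum total 15), scaled by TMM and tested with edgeR 4.0.16 (R 4.3.3), by glmQLFit and glmQLFTest, with Benjamini-Hochberg adjustment over 14082 genes and a threshold of 0.05. The fit used all 6 samples and no replicate block. The steps were run on simulated data, where only the recovery of changes much larger than those of the 10 genes was required. CPM values are TMM scaled, and SDs are over 3 cultures. Alternatives were DESeq2 size factors, library size alone, no filter, at least 10 counts in every sample, a replicate block, counts thinned to the smallest library, DESeq2 1.42.0, limma-voom (limma 3.58.1), other thresholds, and leaving out each culture. Replicates of a group differed by more than the sampling noise of independent reads in every pair (chi-square per degree of freedom 1.89 to 3.41), and none was left out as a duplicate. Counts of reads without molecular identifiers are not independent molecules, so floors cover counting error only. For the same reason, the chi-square values cannot tell separate cultures from repeated libraries of the same RNA.

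Genes named are the 10 genes of the axis, the pathway genes past the threshold, others fixed by name (of which 1 is not reported here), the 3 genes most like the leading one, 4 T-cell markers and the top gene of each other marker list. Thy1, Cd2, Cd5, Ptprc, other genes at 0 and the overlapping genes were named after their values were seen. The genes, lists, pairs and tests were chosen with earlier results of these data known.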

Additional observations from a re-analysis of the deposited data

How the results depend on the processing

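Il2ra and Il2rg kept their direction and their call in all 14 alternatives (log2 fold change 0.16 to 0.19 and 0.21 to 0.28), while Il2rb kept its call in 11 of 14, with -0.15 to -0.095 when 1 culture was left out. Jak1 was called lower with library size alone (-0.10), limma-voom (-0.088) and without control replicate 2, with a range of -0.11 to -0.065 over the cultures left out. The number of members of the axis called lower was therefore 2 with library size alone, limma-voom or a threshold of 0.1, and 0 to 2 without 1 culture. Over all genes, 500 were called at a threshold of 0.01 (251 higher, 249 lower). Leaving out 1 culture gave 508 to 966 calls over all genes, 250 to 514 higher and 258 to 452 lower, with 508 without NFL replicate 3, 616 without NFL replicate 2 and 310 lower without control replicate 1. The pathway lists gave 5 calls at a threshold of 0.01 (3 of them lower) and 6 to 8 (3 to 6 lower) when 1 culture was left out, with 3 lower without control replicate 1.

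Changes near 0 had no stable sign. Stat5b gave -0.0053 with library size alone, -0.0041 with thinned counts and -0.020 to 0.046 without 1 culture. Socs2 gave -0.0061 with library size alone and -0.019 to 0.025 without 1 culture, and Socs1 -0.087 to 0.058. Of the other named genes, Il4ra (-0.082 to 0.016), Il15ra (-0.078 to 0.0062), Jak2 (-0.048 to 0.0047), Stat3 (-0.049 to 0.040) and Socs3 (-0.12 to 0.0074, and 0.0064 with thinned counts) changed sign when 1 culture was left out. In the order of levels, 6 of 10 genes kept their place with the longest transcript length. The 8 ratios had no test that could pass, so only their direction and size were followed when 1 culture was left out, as given above. Where a call was lost, the cause was not tested.

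With the replicate number as a block, 1049 genes were called, 3 of the 10 genes of the axis and 10 pathway genes, the added one being Bcl2 (adjusted p = 0.0354); Jak1 had an adjusted p of 0.0508. The labels do not say that a number marks a shared mouse or day. For each gene with a mean log2 CPM of 1 or more, the deviation of each sample from its group mean was taken. These deviations, not the expression levels, had correlations of 0.0154, 0.0106 and 0.0135 between same-numbered samples. The numbers were therefore not taken to pair the samples, although the deviations of every sample correlated best with those of its own number. Depth limits genes such as Il21r, Ifng and Cd8a, with at most 328 counts per library, more than the 10 genes of the axis, whose lowest count was 802. For Il21r, DESeq2 gave no adjusted p.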
